A study of Homo sapiens with 8 samples.

Results

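The genes described here are 34 genes of the unfolded protein response and the integrated stress response, named one by one as a pathway list; the rule used no measured value, though earlier results of these data were known when the list was made. Of these, 33 had reads across annotated introns, out of 21212 genes with such reads in the series. CEBPB, a leucine zipper transcription factor, has no annotated intron in GENCODE release 29 and gave no value. The cells were K562, an established human erythroleukaemia line, and total RNA was sequenced with a strand-specific protocol. SF3B1, a splicing factor that binds near the branch point as part of the U2 snRNP, was wild type or carried the K700E substitution, a change recurrent in myelodysplastic syndromes. The labels give doxycycline at 1 ug/ml as the inducer of the modified allele for all 8 libraries, wild type included. For each genotype, 2 libraries came from day 4 and 2 from day 8. The labels do not say whether the cells were clones or whether replicates were separate cultures, so p-values measure only the spread between these libraries, which may be technical.

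Both responses answer to stress by slowing translation and changing transcription. The kinases EIF2AK1 (HRI, heme-regulated), EIF2AK2 (PKR), EIF2AK3 (PERK) and EIF2AK4 (GCN2) phosphorylate the translation factor eIF2alpha, encoded by EIF2S1, and this favours synthesis of the transcription factor ATF4, which acts on amino acid, redox and feedback genes. In the endoplasmic reticulum (ER), ERN1 (IRE1) cuts a short segment out of the XBP1 mRNA, which shifts the reading frame and gives the active factor, and ATF6 is released by cleavage to switch on chaperone genes. EIF2AK1 is known for adjusting globin synthesis to heme supply in erythroid cells.

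The sequence that IRE1 removes is the base of 1 readout below. It is shown with 20 bases on each side from a GENCODE transcript of XBP1 (GRCh38, chr22:28796102-28796167, minus strand, in a coding exon). Capitals mark the 26 bases skipped by the aligned junction. The letters GCAGCA stand both just before the capitals and at their end. The alignment therefore does not fix the exact cuts, which may lie a few bases earlier and give the same spliced mRNA.
XBP1 26-nt segment: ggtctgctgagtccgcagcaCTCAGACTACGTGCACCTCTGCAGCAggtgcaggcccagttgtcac
The end of a SYVN1 intron is shown because it holds an acceptor (3′ splice site) that was used in K700E libraries. It was read from a GENCODE transcript of SYVN1 that retains part of the intron (GRCh38, chr11:65133238-65133310, minus strand). The capitals mark the last 2 intron bases of the unannotated and then of the main acceptor.
SYVN1 acceptors: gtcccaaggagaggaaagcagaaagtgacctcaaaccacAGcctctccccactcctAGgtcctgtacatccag
Of the 20 bases before the final AG, 8 were pyrimidines and 9 adenines at the unannotated acceptor, against 16 pyrimidines and 3 adenines at the main acceptor. Use of the unannotated acceptor adds 17 bases to the mRNA, which is not a multiple of 3.

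Promoters were searched for sequence elements linked to the branches, and 32 of the 34 genes had a RefSeq promoter (GRCh38.p14). The 250 bases before each start were searched on both strands for the C/EBP-ATF response element (CARE, TGATG and AA with 1 base between), the ER stress response element (ERSE, CCAAT and CCACG with 9 bases between) and ERSE-II (ATTGG and CCACG with 1 base between). CARE was present in 5 of 32 promoters (ASNS, ATF3, CHAC1, HERPUD1 and PPP1R15B), against 3.14% of all 35116 promoters. ERSE was present in 5 (CALR, CANX, HSP90B1, HSPA5 and XBP1) against 0.0740%, and ERSE-II in 2 (HERPUD1 and SDF2L1) against 0.0513%. HSP90B1 held 2 copies of ERSE. The motif pairs overlapped in no promoter shown. Windows around the matches, with the motif in capitals, are printed for genes whose levels are described below.
HSPA5 (chr9:125241381-125241419, minus strand, ERSE): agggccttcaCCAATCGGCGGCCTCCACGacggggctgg
CALR (chr19:12938374-12938412, plus strand, ERSE): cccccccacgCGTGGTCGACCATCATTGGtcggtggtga
HERPUD1 (chr16:56931956-56932045, plus strand, CARE then ERSE-II): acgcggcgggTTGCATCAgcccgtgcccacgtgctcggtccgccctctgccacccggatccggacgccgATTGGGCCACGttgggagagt
SDF2L1 (chr22:21642104-21642134, plus strand, ERSE-II): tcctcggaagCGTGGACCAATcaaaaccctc
ATF3 (chr1:212565206-212565233, plus strand, CARE): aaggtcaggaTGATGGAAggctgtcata
CHAC1 (chr15:40953252-40953279, plus strand, CARE): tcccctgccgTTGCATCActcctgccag
ASNS (chr7:97872459-97872486, minus strand, CARE): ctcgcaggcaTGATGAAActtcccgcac
A match describes the letters only and shows no binding.

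Libraries held 49338071 to 77750812 uniquely mapped junction reads. Those labelled wild type at day 8 listed 211347 and 278644 junctions, against 375683 to 470900 in the rest. Of their unannotated junctions, 3.55% and 4.94% had 1 unique read, against 23.7% to 34.9% in the rest. Junctions with few reads were thus scarcer there, for a reason that was not tested. Low day 8 shares of unannotated junctions below, 0% included, are therefore not like for like between labels. The genotype labels were checked against acceptors known to answer to SF3B1 hotspot changes: in each of 20 such genes, the most used acceptor lying up to 50 nt upstream of the main one. Median use over these genes at day 4 was 1.55% and 1.89% for wild type, against 30.0% and 29.1% for K700E. The day 8 medians were 0% and 27.3% under the wild-type label, against 2.89% and 29.9% under the K700E label. Thus wild type replicate 2 and K700E replicate 1 of day 8 went against their labels; libraries were kept in their labelled groups, and day 8 genotype comparisons carry this limit. The day 4 libraries were aligned on 1 date and the day 8 groups on 2 others, 1 for each label, per the file headers. Day and processing date therefore cannot be told apart, and neither can genotype label and processing date at day 8. A label calls the cells epithelial; 12 of 16 erythroid markers exceeded 1 CPM (spliced reads scaled to library size, defined below) in every library. Of 8 epithelial markers 4 did, led by the keratin genes KRT8 and KRT18, while CDH1 (E-cadherin) and CLDN4 were at most 0.042 CPM. No marker of either list was at 0 in all libraries. Summed epithelial markers were 868 and 987 CPM in wild type and 688 and 488 in K700E at day 4, and 1019 to 2608 at day 8. Summed megakaryocyte markers (8 genes, of which 1 exceeded 1 CPM throughout) were 12.2 and 22.1 CPM in wild type and 101 and 119 in K700E at day 4, and 34.04 to 490 at day 8. Summed erythroid markers were 2724 and 2259 CPM against 2177 and 1159 at day 4, and 1205 to 1934 at day 8. The part of these shifts in the results below was not tested.

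At day 4 most of the stress-response genes were lower in K700E than in wild type, and none passed the test across all genes. Levels are unique reads over a gene's annotated introns, scaled by library size and TMM factors (CPM); they depend on the number of introns, so levels of different genes are not compared. Both K700E libraries were below both wild-type libraries in 25 of 33 genes and above them in 1. Over all genes tested, 28.2% were lower in this way and 26.4% higher. The log2 change (K700E over wild type) was below 0 in 30 of 33, with a median of -0.55 against 0.02 over all 13991 genes. With library totals in place of TMM these medians were -0.45 and 0.11, and 27 were below 0. By edgeR's quasi-likelihood test with Benjamini-Hochberg adjustment over all genes, 0 of 33 were called at 0.05, against 0.529% of all genes. Without adjustment 18 of the 33 had a p under 0.05, of which 17 were lower, against 21.3% of all genes. DESeq2, which called 11.7% of all genes, called 10 of the 33, all lower. The calls turned on single libraries: 20 genes passed edgeR without K700E replicate 1 (17.6% of all genes), 8 without K700E replicate 2 (8.55%) and 0 without either wild-type library. In those fits the lone library was assumed to vary like the other group. Bulk RNA cannot tell fewer cells with active stress signalling from less RNA per cell.

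**Figure D1:**
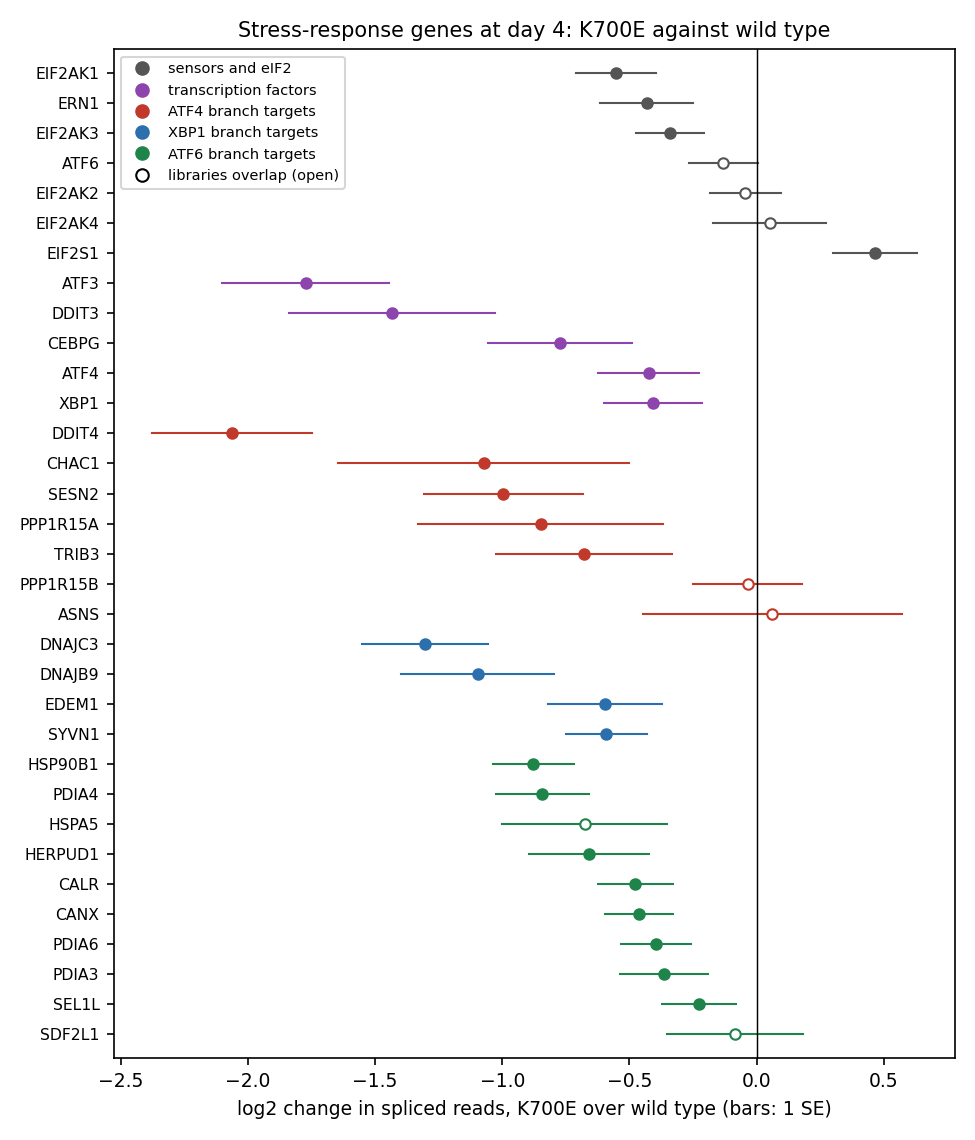
Log2 change at day 4 for each of the 33 genes, grouped by role; bars are 1 SE, filled points mark genes whose K700E and wild-type libraries did not overlap and open points the rest. DDIT4 at -2.06 lies farthest to the left and EIF2S1 at 0.47 is the only filled point to the right of 0.

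Among the sensors, 3 of 7 were lower without overlap, 1 was higher and 3 overlapped, with a median log2 change of -0.13. EIF2AK1 had 989.6 and 1164 CPM in wild type and 808 and 646 in K700E at day 4. Both K700E libraries were below both others, a log2 change of -0.55 (SE 0.16, edgeR adjusted p = 0.146, DESeq2 0.0397). EIF2AK3 had 48.3 and 49.1 CPM in wild type and 38.2 and 37.9 in K700E. ERN1 had 63.7 and 54.7 against 49.1 and 37.8 CPM. Neither passed either tool. EIF2S1, the target of the kinases, went the other way: 166 and 209 CPM in wild type and 239 and 273 in K700E, a log2 change of 0.47 (SE 0.16, edgeR adjusted p = 0.196). EIF2AK2, EIF2AK4 and ATF6 had log2 changes of -0.04, 0.05 and -0.13, and their groups overlapped.

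All 5 measured transcription factors were lower in K700E at day 4 without overlap, with a median log2 change of -0.77. ATF3, a stress-induced repressor and activator downstream of ATF4 (chromosome 1, 212565334 to 212620777, plus strand), had 46.1 and 80.7 CPM in wild type and 21.8 and 14.9 in K700E. The wild-type libraries were far apart, and the lower of them was still above both K700E libraries. Its mean was 63.4 ± 24.5 (SD, n = 2) against 18.3 ± 4.91, a log2 change of -1.77 (SE 0.33, edgeR adjusted p = 0.0887, DESeq2 8.46e-06). DDIT3, which encodes the pro-apoptotic factor CHOP, had 62.5 and 118 CPM in wild type and 43.0 and 23.1 in K700E. Its log2 change was -1.43 (SE 0.40, edgeR adjusted p = 0.144, DESeq2 0.00441). A share of 29.3% of DDIT3 reads lay in an intron shared with AC022506.1 and was left out; with it the log2 change was again -1.43. ATF4 itself had 139 CPM in both wild-type libraries and 122 and 83.6 in K700E, a log2 change of -0.42 (SE 0.20). ATF4 is controlled mainly at translation, which RNA does not show. CEBPG, a partner of ATF4, was little expressed, with 3.65 and 4.18 against 2.19 and 2.33 CPM. XBP1 had 85.6 and 107 CPM against 81.9 and 61.9, with K700E replicate 1 just below the wild-type range.

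Of the 7 ATF4 branch targets, 5 were lower without overlap and 2 overlapped, with a median log2 change of -0.85. DDIT4 (REDD1), an inhibitor of mTORC1, showed the largest change of the 33 (chromosome 10, 72273920 to 72276036, plus strand). It had 95.5 and 89.3 CPM in wild type and 28.7 and 15.1 in K700E. Wild-type libraries agreed closely and both K700E libraries were under 30 CPM. The mean was 92.4 ± 4.40 (SD, n = 2) against 21.9 ± 9.67, a log2 change of -2.06 (SE 0.31, edgeR adjusted p = 0.0651, DESeq2 1.34e-08), that is 4.18 times lower. SESN2, a stress-induced inhibitor of mTORC1 that senses leucine, had 68.5 and 76.2 CPM against 47.3 and 24.5, a log2 change of -0.997 (SE 0.31, edgeR adjusted p = 0.166, DESeq2 0.0242). CHAC1, which degrades glutathione, had 7.46 and 9.22 CPM against 6.07 and 1.77. TRIB3, a pseudokinase that restrains ATF4, had 26.6 and 26.1 against 21.8 and 10.8 CPM. PPP1R15A (GADD34), which directs dephosphorylation of eIF2alpha, had 48.6 and 48.1 against 39.8 and 13.3 CPM. In CHAC1, TRIB3 and PPP1R15A replicate 1 of K700E was close to wild type and replicate 2 far below. PPP1R15B, the constitutive counterpart of PPP1R15A, overlapped at a log2 change of -0.04 and ASNS, asparagine synthetase, at 0.06. For ASNS, 99.5% of reads lay in introns shared with AC079781.5 and were left out; with those reads it had 1033 and 1489 CPM in wild type and 1471 and 930.1 in K700E, again overlapping.

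**Figure D2:**
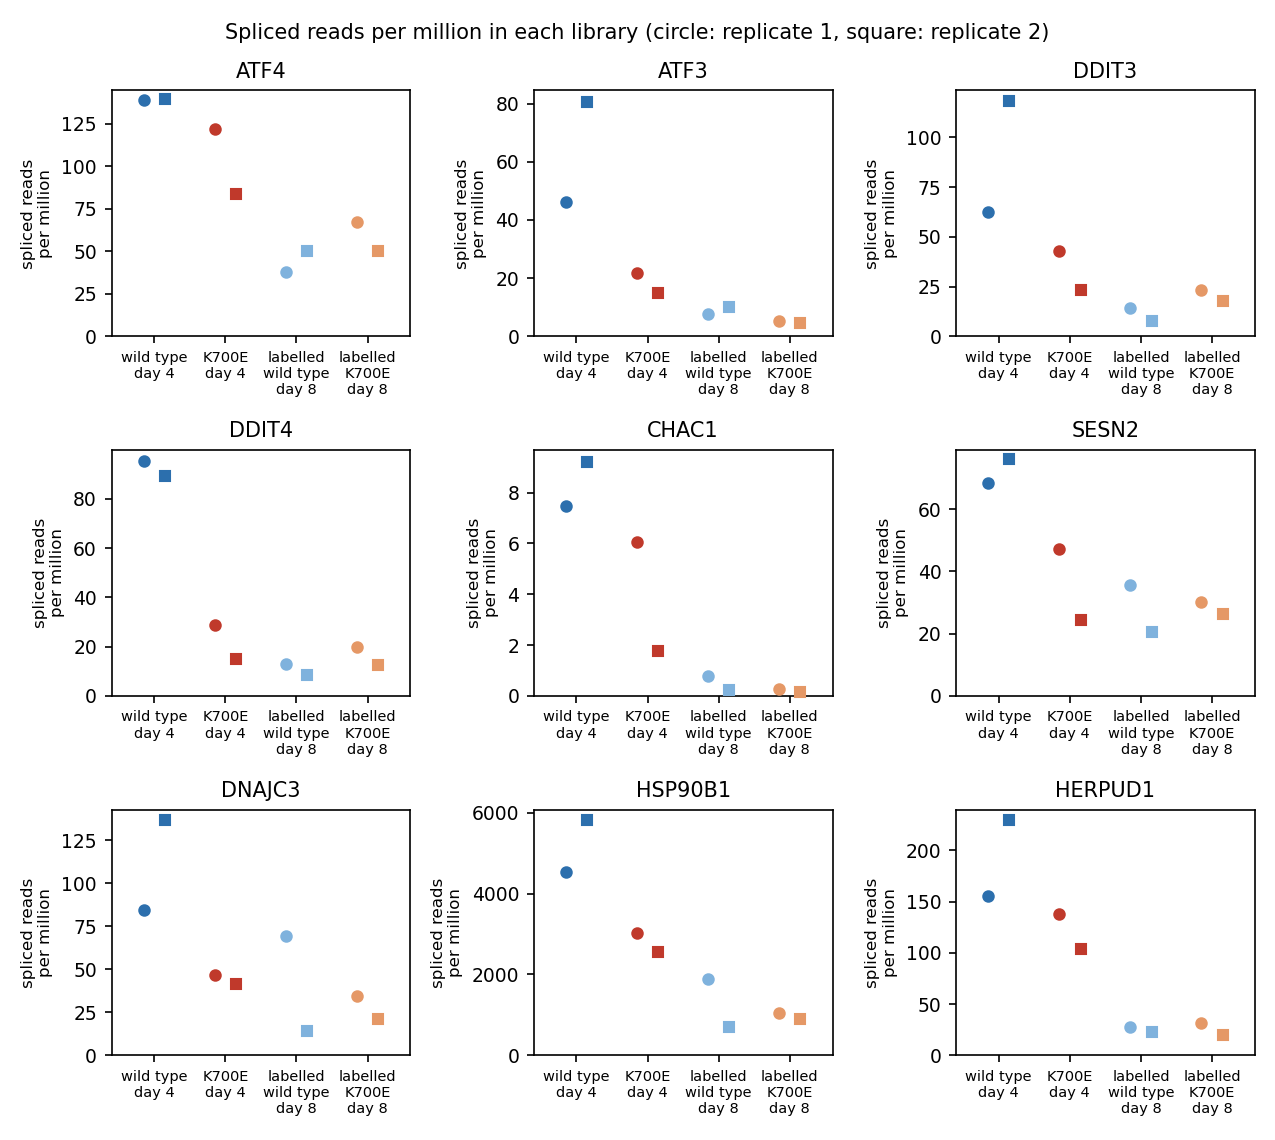
CPM of 9 genes in each library, with circles for replicate 1 and squares for replicate 2; the 4 columns are the labelled groups and each vertical axis starts at 0. In DDIT4 both K700E libraries at day 4, 28.7 and 15.1, lie far under the wild-type values of 95.5 and 89.3, and CHAC1 was under 1 CPM in every day 8 library.

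All 4 XBP1 branch targets were lower in K700E at day 4 without overlap, with a median log2 change of -0.85. DNAJC3 (p58IPK), an ER co-chaperone that also inhibits PERK (chromosome 13, 95677139 to 95794989, plus strand), had 84.4 and 137 CPM in wild type and 46.8 and 41.7 in K700E. Its log2 change was -1.30 (SE 0.25, edgeR adjusted p = 0.0888, DESeq2 8.38e-05). DNAJB9 (ERdj4), which helps direct misfolded proteins to degradation, had 17.3 and 20.3 CPM against 10.9 and 6.46, a log2 change of -1.10 (SE 0.30, edgeR adjusted p = 0.139, DESeq2 0.0120). EDEM1, which marks misfolded glycoproteins for disposal, had 152 and 179 CPM against 86.9 and 130.4. SYVN1 (HRD1), the ubiquitin ligase of ER-associated degradation, had 75.2 and 87.1 against 58.7 and 47.9 CPM, a log2 change of -0.59 (SE 0.16, edgeR adjusted p = 0.138, DESeq2 0.0298).

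Of the 10 ATF6 branch targets, 8 were lower without overlap and 2 overlapped, with a median log2 change of -0.47. HSP90B1 (GRP94), the ER form of HSP90, had 4540.4 and 5822 CPM in wild type and 3022 and 2558 in K700E. The groups were well apart, with a log2 change of -0.88 (SE 0.16, edgeR adjusted p = 0.0863, DESeq2 4.16e-04). PDIA4, a disulfide isomerase, had 457 and 629 CPM against 317 and 283, a log2 change of -0.84 (SE 0.18, edgeR adjusted p = 0.107, DESeq2 0.0022). HSPA5 (BiP), the main ER chaperone and sensor ligand, had 1809.8 and 3174 CPM against 1890.1 and 1198. K700E replicate 1 lay between the wild-type libraries. HERPUD1, a partner of the SYVN1 ligase, had 155 and 229 CPM against 138 and 104, a log2 change of -0.66 (SE 0.24). CALR and CANX, the lectin chaperones calreticulin and calnexin, had log2 changes of -0.48 and -0.46, PDIA3 and PDIA6 of -0.36 and -0.39, and SEL1L, the SYVN1 adaptor, of -0.23. SDF2L1, an ER chaperone cofactor, overlapped at -0.08.

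Splicing of XBP1 mRNA by IRE1 was read directly as the junction across the 26 bases printed above. It was counted relative to the mean of the junctions on either side of the same exon. At day 4 it had 244 and 407 reads in wild type and 345 and 181 in K700E. This was 23.4% (95% counting interval 20.5 to 26.5) and 27.6% (25.01 to 30.5) in wild type, and 25.3% (22.7 to 28.1) and 21.3% (18.3 to 24.6) in K700E. The genotypes overlapped: the mean was 25.5% ± 3.004 (SD, n = 2) against 23.3% ± 2.82, a difference of -2.24 points (exact two-sided permutation p = 0.667). With 2 libraries against 2 the smallest possible p is 0.333. At day 8 the values under the wild-type label were 40.3% (36.8 to 44.0) and 13.5% (10.5 to 17.1), against 28.7% (24.6 to 33.3) and 19.9% (17.1 to 23.1) under the K700E label. Within each label the day 8 intervals did not overlap, though under the K700E label they lay close (23.1 against 24.6). Between labels the exact two-sided permutation p was 1, and the difference of -2.58 points became 10.8 without wild type replicate 1. In both labels of day 8, replicate 1, with low use of the hotspot acceptors, had the higher XBP1 share. Intervals cover only the counting error of the 26-nt junction's reads, not that of the flanking reads.

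**Figure D3:**
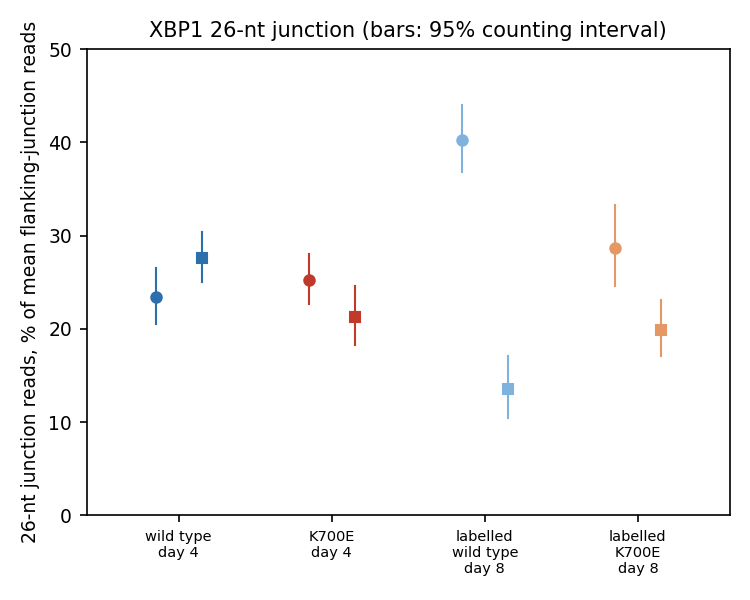
Reads across the XBP1 26-nt junction as a percentage of the mean of both flanking junctions, per library; bars are 95% counting intervals, circles replicate 1 and squares replicate 2. The 4 day 4 libraries sit between 21.3% and 27.6%, and the day 8 libraries between 13.5% and 40.3%.

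Splice-site choice was tested at 211 junctions of these genes sharing a donor (acceptor choice) and 208 sharing an acceptor (donor choice) at day 4. The text calls a junction at an adjusted p under 0.05 with a change in use of at least 5 points. For acceptor choice 2 were called, both unannotated acceptors that were used more in K700E, against 0.468% of all junctions; for donor choice 0 were called, against 0.0309%. Without adjustment, edgeR's p was under 0.05 for 17 (8.06%) and 16 (7.69%) of them, near the 7.02% and 5.65% of all junctions tested. For donor choice limma called 0 of them. The 2 calls lay in SYVN1 and EIF2AK4. There the main acceptor of the same donor was not called by edgeR (unadjusted p = 0.425 and 0.341).

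SYVN1 used the acceptor printed above, 17 nt upstream of the main one (intron chr11:65133270-65133469), in 1 and 0 reads of wild type and 30 and 32 of K700E at day 4. As a share of all reads from that donor this was 0.413% (95% Wilson interval 0.0730 to 2.30) and 0% in wild type, where 0 of 336 reads allows up to 0.893%, and 10.9% (7.72 to 15.1) and 19.0% (13.8 to 25.7) in K700E. The mean difference was 14.8 points (edgeR adjusted p = 0.00691). The adjusted p was 0.173 by limma and 0.172 or 0.409 without either wild-type library; without either K700E library the junction fell below the read minimum. At day 8 the shares were 0% and 16.6% under the wild-type label, against 3.11% and 12.7% under the K700E label, and were far apart within each label.

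EIF2AK4 (GCN2) used an unannotated acceptor inside its intron of chr15:39943486-39949115, where the new intron ends at 39945334. It had 16 and 10 reads in wild type and 114 and 73 in K700E. The shares were 4.22% (2.62 to 6.75) and 2.33% (1.27 to 4.23) against 26.8% (22.8 to 31.2) and 14.0% (11.3 to 17.3), a mean difference of 17.1 points (edgeR adjusted p = 0.0374, limma 0.0421). An unannotated donor at 39945487 joined the same downstream exon in 0 and 0 wild-type and 19 and 9 K700E reads, which together would bound an exon of 152 bases; another at 39946893 did so in 3 and 1 against 15 and 7 reads. The adjusted p was 0.360 and 0.738 without wild type replicate 1 or 2, 0.163 with K700E replicate 1 left out and 0.0183 with replicate 2 left out. The day 8 shares were 0% and 4.92% under the wild-type label, against 1.74% and 25.6% under the K700E label. The overall level of EIF2AK4 did not separate the genotypes, with 185 and 227 CPM against 170.3 and 251.

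Unannotated acceptors up to 50 nt upstream of the main one were tested in 7 of these junctions at day 4, a class singled out after the values were seen. Both K700E libraries were above both wild-type libraries in 4 (SYVN1, CANX, DNAJC3 and DDIT3) and below in 1 (HERPUD1). Over all genes, 53.5% of 1571 such acceptors were above in this way and 11.4% below, so the count for these genes is near the background. DNAJC3 used an acceptor 19 nt upstream in 1.15% and 0.109% of reads in wild type and 6.23% and 7.09% in K700E (edgeR adjusted p = 0.104). DDIT3 used one 21 nt upstream in 0.642% and 0.336% against 2.51% and 2.42% (adjusted p = 0.267). CANX used one 20 nt upstream in 0% and 0.0142% against 0.128% and 0.341% (adjusted p = 0.0561). In all 4 genes most mRNAs used the main acceptor in every library. Across the 33 genes, unannotated junctions took 0.326% to 0.380% of reads in wild type and 0.316% to 0.333% in K700E at day 4.

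**Figure D4:**
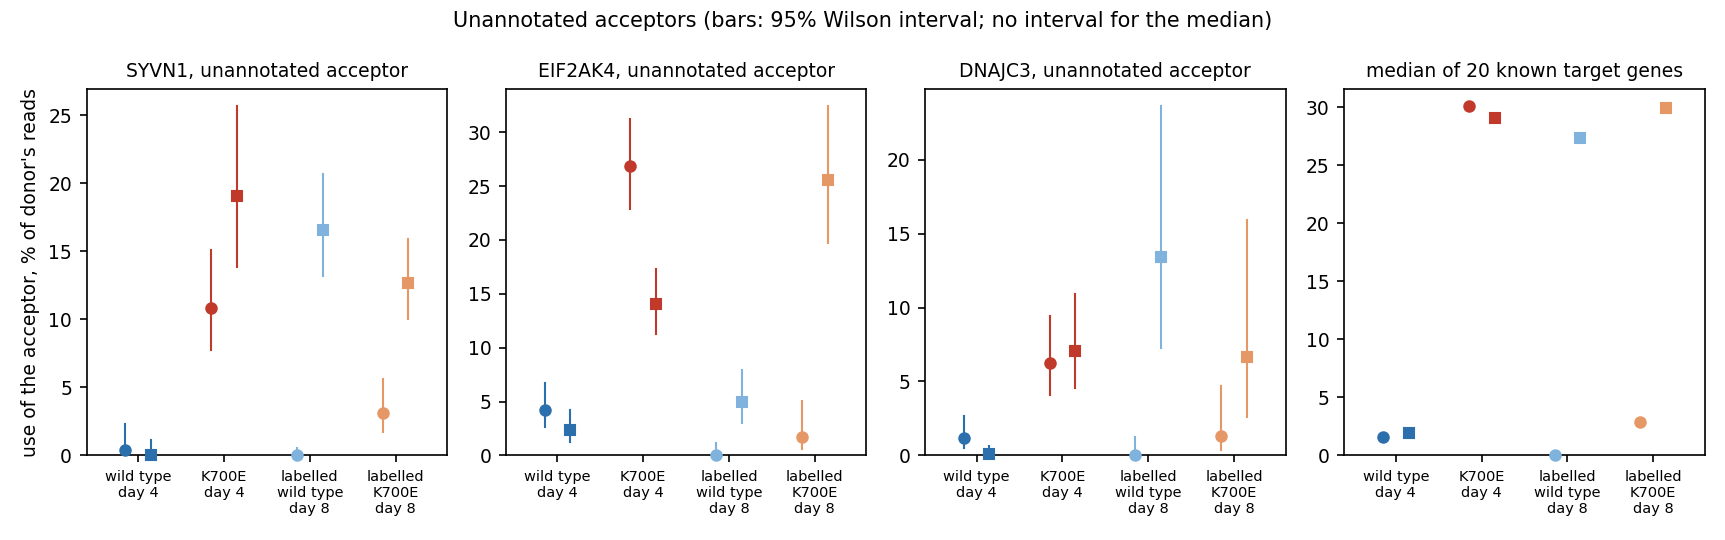
Use of the unannotated acceptors of SYVN1, EIF2AK4 and DNAJC3 as a percentage of all reads from the same donor, beside the median over the 20 genes of the label check, per library; bars are 95% Wilson intervals. At day 4 both K700E libraries lie above both wild-type libraries in every panel, and at day 8 the replicate 2 libraries lie above their replicate 1 partners in every panel.

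The other named junctions did not pass. EIF2AK3 used an unannotated acceptor at 88594109, inside the intron chr2:88593406-88595468, in 14.5% and 19.2% of reads in wild type and 6.42% and 1.16% in K700E (adjusted p = 0.223). The annotated donor at 88593912 in the same intron gave 16.5% and 29.2% of the reads into the main acceptor at 88593406 in wild type and 9.42% and 6.04% in K700E (adjusted p = 0.400). Correspondingly, the full intron took 78.6% to 84.9% of the donor's reads in wild type and 92.7% and 98.8% in K700E. In EIF2AK1 an unannotated acceptor at 6039036 was reached from a donor at 6042932 in 2 and 0 reads against 7 and 6, and from one at 6040891 in 33 and 34 against 19 and 22, with adjusted p-values of 0.717 and 1.00.

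At day 8 the labelled genotypes were hardly separated. By edgeR 0 of 33 genes were called, with 0% of all genes called and 1 of the 33 having an unadjusted p under 0.05 (2.92% of all genes); DESeq2 also called 0 (0.193% of all genes). In 5 genes (EIF2AK2, ATF3, PPP1R15B, PDIA3 and CALR) both libraries labelled K700E were below both labelled wild type, and in 4 (EIF2S1, DDIT3, TRIB3 and SDF2L1) above, where all genes gave 13.2% and 19%. With library totals in place of TMM, 9 were below and 3 above, against 15.2% and 16.5% of all genes. For ATF3 the day 8 levels were 7.58 and 10.1 CPM under the wild-type label, against 5.41 and 4.51 under the K700E label. The median log2 change of -0.27 turned to 0.14 without wild type replicate 1, which had the highest level of the 4 in ERN1, SYVN1, PDIA4 and DNAJC3. DNAJC3, for example, had 69.7 and 14.1 CPM under the wild-type label, against 34.3 and 21.3 under the K700E label. None of 126 junctions was called for acceptor choice (0% of all) and none of 106 for donor choice (0%) by edgeR, and limma also called 0. An unadjusted p under 0.05 was found for 7 and 1 of them, against 2.79% and 2.78% of all junctions.

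In the fit of all 8 libraries, 0 of 33 genes were called by edgeR for genotype over both days (0% of all genes; 8 had an unadjusted p under 0.05, against 9.28% of all genes). DESeq2, which called 0.752% of all genes, called ATF3 alone, with a log2 change of -1.31 in edgeR. ATF3 was lower in K700E at day 4 and under the K700E label at day 8. In acceptor use, wild type replicate 2 and K700E replicate 1 of day 8 went against their labels. The change between days in the genotype difference was called for 0 of 33 by edgeR (0% of all genes; 4 unadjusted, against 9.2% of all genes) and for DDIT3 and DDIT4 by DESeq2 (1.29% of all genes). DDIT4 at day 8 had 13.0 and 8.66 CPM under the wild-type label, against 19.9 and 12.6 under the K700E label, and these overlapped. Its difference between days was 2.66 on the log2 scale (edgeR adjusted p = 0.472, DESeq2 9.67e-04).

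A comparison between days was added after the values were seen. Day 8 libraries were set against day 4 libraries over both labels, and 19 of 33 genes changed by edgeR. Of these 18 fell and 1 rose, where 18% of all genes fell and 18.1% rose. DESeq2 called 23 of 33, of which 21 were lower, and 6346 of all 14902 genes. With 4 libraries a day, these calls are not like for like with the genotype tests of 2 against 2. The median log2 change was -0.69 against -0.00 over all 14902 genes; with library totals these were -0.51 and 0.17. All 4 day 8 libraries were below all 4 day 4 libraries in 12 genes and above in 1, where 17.7% of all genes were below and 17.4% above. Each label taken alone gave 15 calls (wild type, 20.3% of all genes) and 10 (K700E, 18.9% of all genes). At day 8 each label held 1 library with low and 1 with high use of the hotspot acceptors. These fits therefore do not follow a single genotype by that measure.

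**Figure D5:**
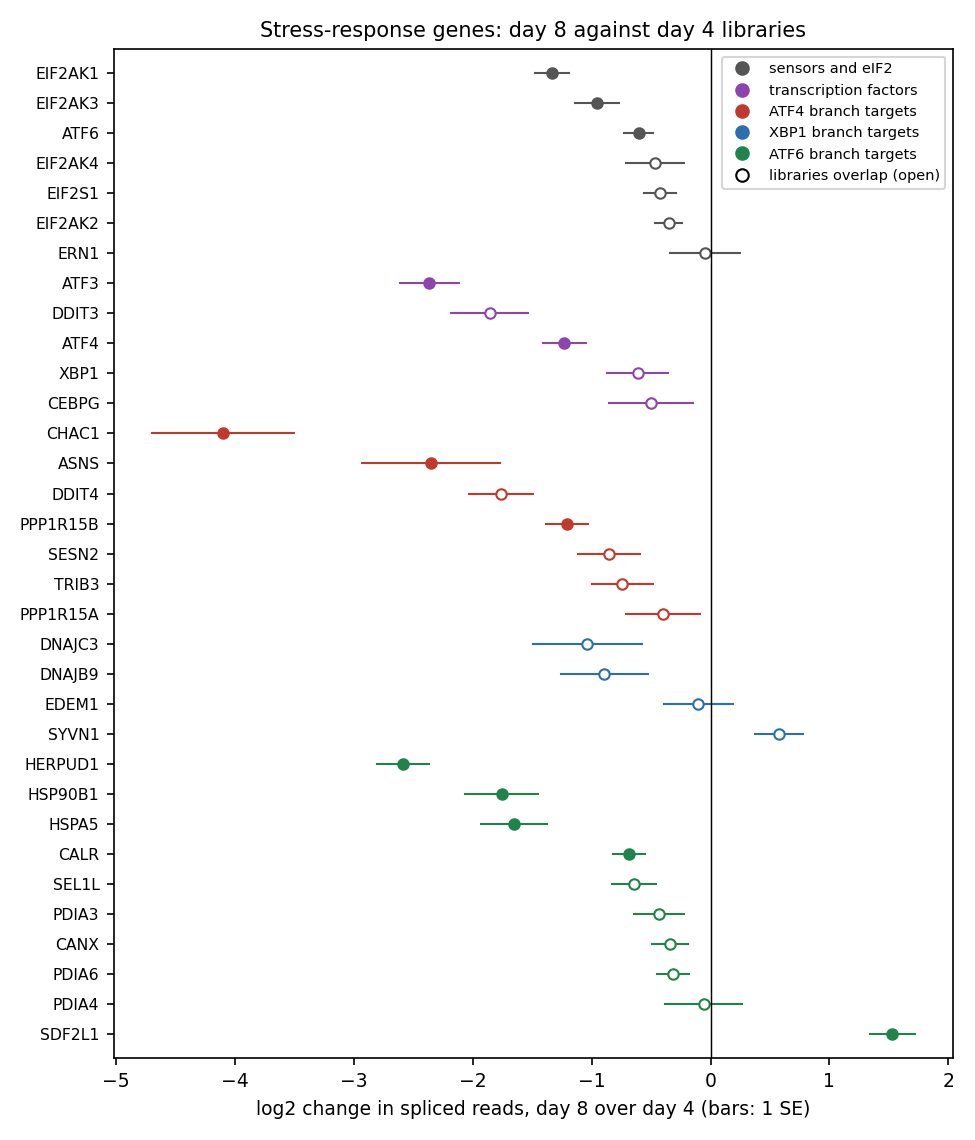
Log2 change between days (day 8 over day 4, mean over both labels) for each of the 33 genes, grouped by role; bars are 1 SE and filled points mark genes whose day 4 and day 8 libraries did not overlap. CHAC1 at -4.10 and HERPUD1 at -2.59 fell most and SDF2L1 at 1.53 lies alone on the right among the filled points.

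By role, edgeR called 5 of 7 sensors lower, 3 of 5 transcription factors, 5 of 7 ATF4 targets, 0 of 4 XBP1 targets and 5 of 10 ATF6 targets. It called 1 ATF6 target higher, where 18% of all genes were lower and 18.1% higher. DESeq2 called 3 of the 4 XBP1 targets, 2 of them lower, and 6 of the 7 ATF4 targets, all lower. CHAC1 went from 1.77 to 9.22 CPM at day 4 to 0.162 to 0.791 at day 8, a log2 change of -4.10 (SE 0.60, edgeR adjusted p = 0.00255). HERPUD1, whose promoter holds both CARE and ERSE-II, went from 104 to 229 CPM at day 4 to 19.8 to 31.3 at day 8, a log2 change of -2.59 (SE 0.22, adjusted p = 8.51e-04). ATF3 fell by 2.36 on the log2 scale (SE 0.25, adjusted p = 0.00106) and reached 4.51 to 10.1 CPM. ATF4 fell by 1.23 (SE 0.18, adjusted p = 0.00256), DDIT3 by 1.86, DDIT4 by 1.76 and ASNS, over its unshared introns, by 2.35. With the introns it shares counted, ASNS fell by 2.38 (SE 0.31, edgeR adjusted p = 0.00174). Of the eIF2alpha phosphatase subunits, the constitutive PPP1R15B fell by 1.21 and PPP1R15A did not pass at -0.40. EIF2AK1 fell by 1.33 (SE 0.14, adjusted p = 0.00116), from 646 to 1164 CPM down to 290.0 to 383. HSPA5 fell by 1.65 and HSP90B1 by 1.76; no library of either overlapped between days. SDF2L1 rose by 1.53 (SE 0.19, adjusted p = 0.00151), from 24.6 to 39.2 CPM at day 4 to 66.3 to 110.4 at day 8. HERPUD1 and SDF2L1 share ERSE-II and moved in opposite directions. PDIA4, ERN1 and EDEM1 were close to level between days, at -0.06, -0.05 and -0.10. SYVN1 gave 0.58 (adjusted p = 0.0585) and, with the intron it shares with FAU counted, 0.72 (adjusted p = 0.010), which passed. The calls of EIF2AK2, EIF2S1, SEL1L and SESN2 were each lost in 6 or 7 of the 8 fits that left out 1 library, that of ASNS in 3 and that of ATF6 in 1.

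Likeness across the 8 libraries was described by Spearman's rho of CPM, over points that share day and library. The genes most like ATF4 were HERPUD1 and EIF2AK1 (rho 0.929 each) and DDIT3 (0.905). Those most like ATF3 were CALR (0.952), EIF2AK3 and CHAC1 (0.929 each).

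Other genes of the pathway came from 5 further lists, and edgeR called 0 of their members at day 4. In the order below, 8, 11, 5, 5 and 3 had an unadjusted p under 0.05, and DESeq2 called 6, 5, 3, 3 and 2. All genes gave 21.3% and 11.7% on these measures, and 28.2% lower and 26.4% higher without overlap, so several of the counts below lie near or under the background. Of 32 amino acid and redox genes of the integrated stress response, 12 were lower without overlap and 4 higher. The largest were ATF5, an ATF4-related factor, at 35.5 and 31.0 CPM against 8.56 and 3.22, PHGDH of serine synthesis (log2 -1.52, adjusted p = 0.0556) and the cystine carrier SLC7A11 (log2 -1.22). Of 26 ER translocation and XBP1 genes, 17 were lower and 0 higher, led by SEC11C (-0.81), LMAN1 (-0.69) and OSTC (-0.64). Of 15 ER folding genes, 7 were lower and 2 higher, led by P4HB (-0.73), ERO1A (-0.71) and PPIB (-0.57). Of 16 degradation genes, 8 were lower and 4 higher, with OS9 at -0.61, SELENOS at -0.55 and MARCHF6 at -0.48. Of 26 regulators, 3 were lower and 10 higher, with MAP3K5 (ASK1) at 0.96, OMA1, the mitochondrial protease that relays stress to EIF2AK1, at 0.74, and EIF2B3 at 0.65. Median log2 changes of the 5 lists in this order were -0.22, -0.33, -0.28, -0.09 and 0.14.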

How the data were processed

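RNA of 8 libraries was measured as splice-junction reads. Per the submitters' processing notes, trimming used cutadapt and STAR mapped the reads to hg38; STAR was 2.7.0e with GENCODE 29 junctions in the index, per the file headers. The deposited values are counts of uniquely mapped and multi-mapped reads per junction, not normalized. Unique reads were summed over GENCODE 29 introns belonging to 1 gene; introns of several genes (4.17% of reads) were not counted. After filterByExpr and TMM scaling, genes were tested with edgeR 4.0.16 (quasi-likelihood), with DESeq2 1.42.0 as an alternative. Junctions with 5 reads in at least 2 libraries, at sites with 2 or more such junctions and a mean of 20 reads, were tested with edgeR, and with limma 3.58.1 as an alternative, in R 4.3.3. The steps were tested on simulated data. All genes of the list were named. From each other list, up to 3 genes without overlap at day 4 and with the largest change were named; of junctions, those called and the 10 with the largest day 4 change. The genes and lists were chosen with earlier results of these data known. Motifs were searched in RefSeq promoters. Genotype tests used the 4 libraries of a day, or all 8.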

Additional observations from a re-analysis of the deposited data

Results flagged for a closer look

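DDIT3 and TRIB3 moved in opposite directions at the 2 days: both K700E libraries were below both wild-type libraries at day 4, and both libraries labelled K700E were above both labelled wild type at day 8. The difference between the 2 genotype effects was 2.346 on the log2 scale for DDIT3 (edgeR unadjusted p = 0.00738, adjusted p = 0.472) and 1.782 for TRIB3 (unadjusted p = 0.0094, adjusted p = 0.472), so neither passed. At day 8 TRIB3 had 6.86 and 10.1 CPM under the wild-type label, against 19.5 and 16.6 under the K700E label; 1 library of each label went against it in acceptor use. DESeq2 called this difference for DDIT3 (adjusted p = 0.0320). The groups of 2 libraries were too small for a search for outlying libraries.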

How the results depend on the processing

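At day 4, the number of genes called over all genes was 74 and moved to 1634 with DESeq2, 1567 without the low-count filter, 0 in the 8-library model and 0 to 2536 when 1 library was left out; the stress-response genes called moved from 0 to 10, 13, 0 and 0 to 20. At day 8 DESeq2 called 27 genes, for both days 112 and for the day by genotype term 192, and without the filter 41 and 102; of the 33 genes these were 1 (both days) and 2 (day by genotype) with either alternative, and at day 8 library totals gave 9 genes lower without overlap, from 5. Leaving out 1 library left these 3 counts at 0. For donor choice at day 4 limma called 81 junctions, the minimum of 20 reads 51 and leaving out a library 0 to 58, from 20; for acceptor choice leaving out a library gave 8 to 110, from 327, and 0 to 1 among these genes, from 2. The day comparison gave 2897 to 5980 genes and 13 to 25 of these genes when a library was left out, 3029 and 2823 in the libraries labelled wild type or K700E alone, 12 to 19 lower and 1 to 2 higher genes without overlap, 10 calls among these genes in K700E alone, and 2 higher without overlap with library totals or all introns. The XBP1 difference ranged from -4.37 to -0.12 points at day 4 and from -16.0 to 10.8 at day 8. The cause of these shifts was not tested, except that the fits without a library have fewer samples.

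Replicate numbers are shared between groups, and the correlation of paired deviations was 0.10 at day 4 and 0.27 at day 8. The labels give no pairing beyond the number. At day 8 equal numbers also shared the level of hotspot acceptor use. The medians were 0% and 2.89% in the replicate 1 libraries, against 27.3% and 29.9% in the replicate 2 libraries. Why they go together was not tested. With a replicate block, 126 genes were called at day 4, 1 of these genes (DDIT4), and 8 junctions for donor choice; the other counts of called genes and junctions fitted with the block, by genotype, stayed within 1.5 times. No block was fitted for the day comparison. For single genes at day 4, 341 values under an alternative kept their side of the threshold, 52 passed it and 3 moved beyond the spread; between days 386 kept it, 49 lost it, 24 passed it and 3 moved. Depth limits the low genes: CHAC1 and CEBPG had under 10 CPM throughout. So did ASNS over the introns it does not share, at 0.444 to 9.40 CPM.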
